A study of Mus musculus with 2 samples.

Results

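Msx and Dlx genes encode homeodomain transcription factors of the NK-like subclass, and 8 of them were followed here: Msx1, Msx2 and Dlx1 to Dlx6. Members were all genes of this list with a probe set annotated to that symbol alone, and 7 of the 8 had one, out of 14860 genes measured in this way. Dlx6 had no such probe set in the annotation used here. RNA of wild-type CD1 mouse limb buds at embryonic day 10.5 was hybridised to 2 Affymetrix arrays. Buds were divided at the midline, with anterior tissue on one array and posterior tissue on the other, and the protocol names 8 litters as the source. CD1 is an outbred stock, the tissue of several embryos was pooled, and whether the buds were of forelimbs, hindlimbs or both is not stated. With 1 array per tissue no spread between replicates exists, so every difference below is a value without a test or a p-value.

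Msx proteins act mainly as transcriptional repressors and are induced by bone morphogenetic protein (BMP) signals. Both Msx genes are active in limb bud mesenchyme and Msx2 also in the apical ectodermal ridge, the strip of ectoderm along the distal margin that keeps the bud growing. Mouse limbs that lack both have defects on the anterior side. Dlx genes lie in closely linked pairs (Dlx1 with Dlx2, Dlx3 with Dlx4, Dlx5 with Dlx6) that share enhancers, and several are active in the ridge. Mice that lack both Dlx5 and Dlx6 have split feet.

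Both Msx genes were higher in anterior tissue, Dlx5 was higher there by just over the 1.3-fold that the submitters used for selection, and the other 4 Dlx genes measured differed little. By measured values, 3 of 7 members passed 1.3-fold toward anterior tissue and 0 toward posterior tissue. Over all 14860 genes, 4.80% passed 1.3-fold toward anterior and 3.77% toward posterior tissue. Among the 9017 genes with a value above a detection floor of 5.06 on the log2 scale, these shares were 4.68% and 1.85%, or 6.53% in either direction. Among the members, 2 of 2 Msx genes and 1 of 5 Dlx genes passed. The median log2 difference of the 7 members was 0.08 toward anterior tissue, against 0.04 toward anterior tissue for all genes, so the median shows little of the Msx difference.

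**Figure D1:**
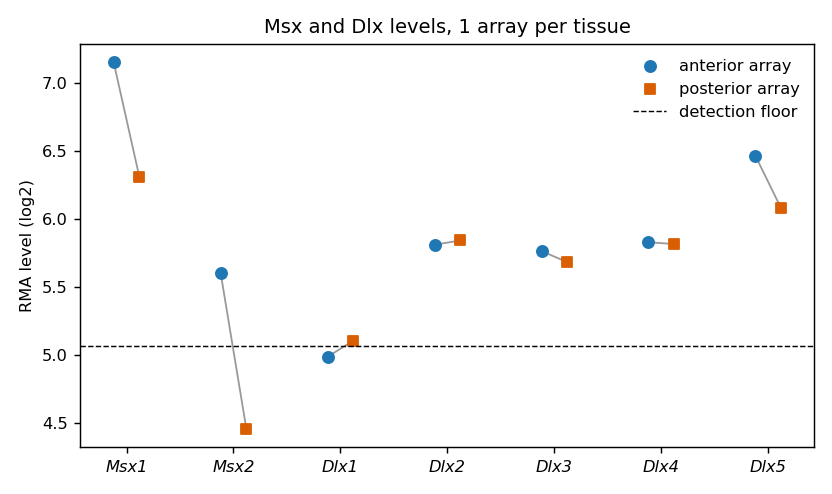
RMA level on the log2 scale (vertical axis) of each measured gene in the anterior array (circles) and the posterior array (squares), with 1 array per tissue. The dashed line is the detection floor at 5.06; Msx1, Msx2 and Dlx5 show the widest gaps, and Msx2 crosses the floor.

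Msx1 (probe set 6937555, Entrez gene 17701) had a level of 7.15 in the anterior and 6.31 in the posterior array, on the log2 scale of the deposited RMA values. It was therefore 1.79-fold higher in anterior tissue, a log2 difference of 0.84. For an idea of the noise, the local spread was taken, which is the robust standard deviation of the log2 differences of the 500 genes closest to it in mean level. Real differences of those genes enter it along with noise, so it does not stand in for a replicate error. For Msx1 the local spread was 0.15, so its measured difference was 5.44 local spreads. The median log2 difference of those 500 genes, posterior minus anterior, was -0.08, and beyond it Msx1 differed by -0.76. Counts of local spreads here and below use the measured difference, without this median removed. Of 9017 genes above the detection floor, 26 lay further toward anterior tissue than Msx1, and of the 500 genes nearest to it in level 5.20% passed 1.3-fold that way. In pooled tissue, fewer cells that express a gene and less RNA per cell cannot be told apart.

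Msx2 (probe set 6813259, Entrez gene 17702) had a level of 5.60 in the anterior and 4.46 in the posterior array. The posterior value lay under the detection floor, which is the 95th percentile of the values of 852 olfactory, vomeronasal and bitter taste receptor and beta-defensin genes. The measured difference of 1.14 on the log2 scale (2.21-fold, local spread 0.20) therefore has only a lower bound. With this floor the bound was 1.45-fold toward anterior tissue, without an error on either value. With the floor at the 99th percentile, 6.01, the anterior value also lay under the floor, which leaves no bound. By the measured values 8 detected genes lay further toward anterior tissue, and 5.60% of the 500 genes nearest in level passed 1.3-fold that way. Of the 852 background genes themselves, 108 passed 1.3-fold toward anterior and 158 toward posterior tissue, so 1.3-fold is not rare among values at background. The gap between the differences of Msx1 and Msx2 was 0.30, but the bound of Msx2 lies under the fold of Msx1, so the order of the pair is not settled. Msx3, the remaining Msx gene of the mouse, known from the dorsal neural tube, was under the floor in both arrays (4.30 and 4.30).

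Dlx5 (probe set 6951483, Entrez gene 13395) had a level of 6.46 in the anterior and 6.08 in the posterior array, both above the floor. It was 1.31-fold higher in anterior tissue, a log2 difference of 0.38 or 2.35 local spreads. The 500 genes nearest in level had a median log2 difference, posterior minus anterior, of -0.09. Beyond that median Dlx5 differed by -0.29. The measured difference of Dlx5 is of a much more common size than that of Msx1. Further toward anterior tissue lay 407 detected genes, and 7.20% of the 500 genes nearest in level passed 1.3-fold that way. Once the trend of the difference with mean level was removed, Dlx5 was 1.24-fold higher, under the threshold, and with the arrays centred on their medians its log2 difference was 0.36, where 1.3-fold is 0.38. Dlx5 acts in the ridge and later in bone formation, and its linked partner Dlx6 was not analysed here.

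Dlx1 and Dlx2, the pair best known from forebrain interneurons and branchial arches, were the only members with a higher posterior value, by small amounts. Dlx2 (probe set 6887715) had 5.81 in the anterior and 5.84 in the posterior array, a log2 difference of 0.03 against a local spread of 0.18. Dlx1 (probe set 6878021) lay at the floor, with 4.98 in the anterior and 5.10 in the posterior array, and its difference of 0.12 was 0.61 local spreads. Dlx1 counts as detected through the posterior array alone, by a margin of 0.04.

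Dlx3 and Dlx4, another linked pair, were lower in the posterior array by small amounts. Dlx3, a regulator of epidermis, hair and placenta that is altered in human tricho-dento-osseous syndrome, had 5.76 in the anterior and 5.68 in the posterior array (probe set 6783701), a log2 difference of 0.08. Dlx4 (probe set 6791020) had 5.83 and 5.81, a difference of 0.01, and its sign turned when the arrays were centred on their medians or the trend with level was removed. Both differences were under 0.47 local spreads. The size of a difference that these arrays would miss is not known without replicates.

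**Figure D2:**
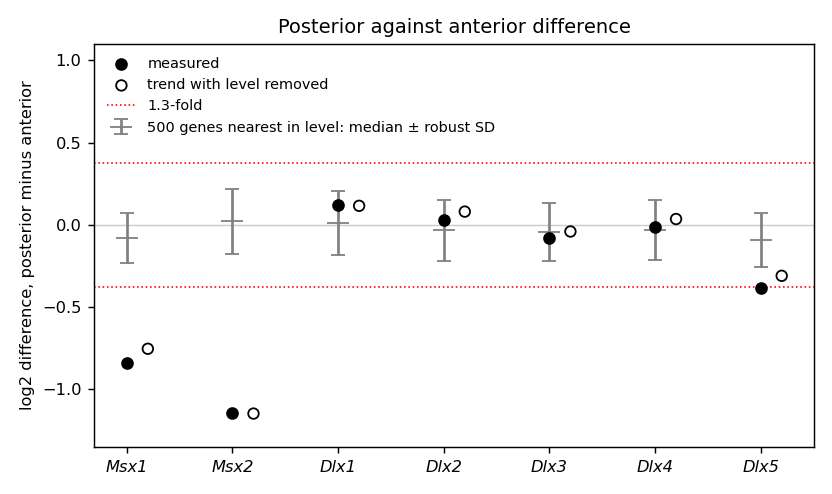
Log2 difference, posterior minus anterior, of each measured gene (filled points) and the same with the trend with level removed (open points). Grey bars give the median ± robust SD of the 500 genes nearest in level and red dotted lines 1.3-fold; Msx1 and Msx2 lie beyond the line under both treatments, and Dlx5 crosses it.

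All 7 measured members lay above the floor in at least 1 array, and 5 of 7 did so in both, the exceptions being Msx2 and Dlx1. A stricter floor at the 99th percentile of the background genes, 6.01, left 2 members detected, Msx1 and Dlx5. Anterior levels of Msx2, Dlx2, Dlx3 and Dlx4 thus overlap the upper tail of genes not known from limb buds. RMA can compress ratios at low levels, and its part in the small Dlx differences was not tested.

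**Figure D3:**
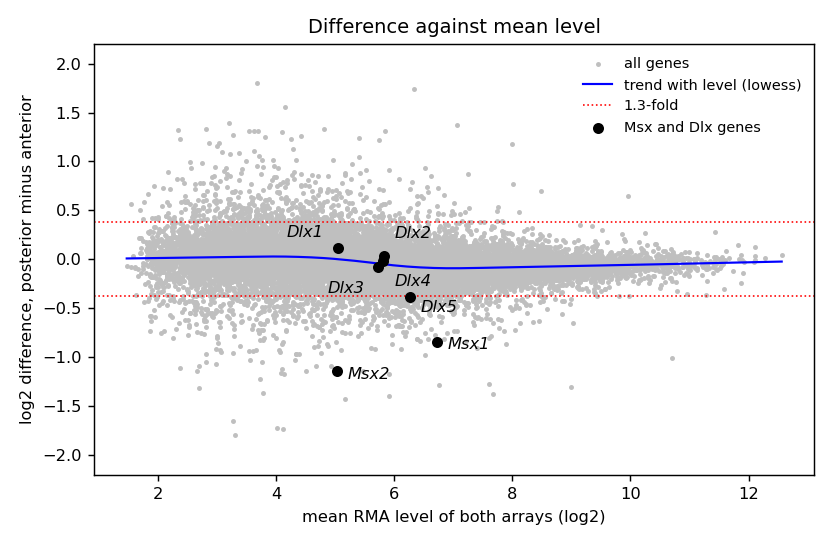
Log2 difference, posterior minus anterior (vertical axis), against the mean RMA level of both arrays on the log2 scale (horizontal axis) for 14860 genes (grey) and the Msx and Dlx genes (black). The blue line is the lowess trend and the red dotted lines are 1.3-fold; Msx1 and Msx2 lie at the lower edge of the cloud, and Dlx1 to Dlx4 lie within it.

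The sequences upstream of Msx1 and Msx2, which were both higher in anterior tissue, are shown beside those of Dlx1 and Dlx2, which were not. They are the 250 bases before the annotated gene start, 5′ to 3′ on the strand of the gene, from RefSeq on GRCm38.p6 (the arrays were annotated on mm9), and 4 of the 8 members had an entry. Capitals mark matches on either strand to CCAAT (the CCAAT box), GGGCGG (the GC box bound by Sp factors), TAATTA (a homeodomain core) or GGCGCC (a GC-rich element bound by SMAD proteins of the BMP branch).
Msx1, chr5:37824586-37824835, minus strand: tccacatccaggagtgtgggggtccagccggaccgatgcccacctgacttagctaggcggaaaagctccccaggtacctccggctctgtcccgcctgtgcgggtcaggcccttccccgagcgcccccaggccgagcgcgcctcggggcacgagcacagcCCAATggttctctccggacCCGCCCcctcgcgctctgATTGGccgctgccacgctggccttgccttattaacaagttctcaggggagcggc
Msx2, chr13:53472781-53473030, minus strand: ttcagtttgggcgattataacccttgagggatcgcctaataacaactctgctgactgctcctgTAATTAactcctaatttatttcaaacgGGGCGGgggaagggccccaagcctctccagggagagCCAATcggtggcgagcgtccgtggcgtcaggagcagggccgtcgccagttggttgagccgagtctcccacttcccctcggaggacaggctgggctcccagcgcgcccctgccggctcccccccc
Dlx1, chr2:71529195-71529444, plus strand: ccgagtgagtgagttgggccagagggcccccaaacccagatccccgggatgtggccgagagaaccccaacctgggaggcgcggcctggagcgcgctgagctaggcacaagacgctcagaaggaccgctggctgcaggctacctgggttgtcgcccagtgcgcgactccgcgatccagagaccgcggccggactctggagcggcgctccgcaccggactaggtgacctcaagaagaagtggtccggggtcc
Dlx2, chr2:71546755-71547004, minus strand: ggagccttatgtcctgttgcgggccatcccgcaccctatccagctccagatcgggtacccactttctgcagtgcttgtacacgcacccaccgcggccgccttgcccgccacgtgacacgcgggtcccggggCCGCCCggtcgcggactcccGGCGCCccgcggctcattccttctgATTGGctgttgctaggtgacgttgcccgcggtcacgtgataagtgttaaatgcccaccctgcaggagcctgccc

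Msx1 held 2 CCAAT matches and 1 GC box match, and Msx2 held 1 of each. Dlx2 also held 1 of each, so these letters do not separate the genes that differed from those that did not. Among 32851 windows of the same length, 33.8% held CCAAT and 32.7% held the GC box. Only Msx2 of these 4 held TAATTA, 187 to 182 bases before the start, a sequence found in 4.84% of all windows. GGCGCC occurred in Dlx2 alone, against 9.59% of all windows. The GLI element TGGGTGGTC, the letters read by the transcription factors of Hedgehog signalling, was in 0.23% of all windows and in 0 of these 4. Dlx1 held 0 matches to the 5 motifs. No matches overlapped.

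The BMP pathway, which induces Msx genes, was compared by role, against a share of 4.80% of all genes past 1.3-fold toward anterior and 3.77% toward posterior tissue. Of 7 BMP response genes, 2 passed 1.3-fold toward anterior tissue and 0 toward posterior tissue, with a median log2 difference of 0.29 toward anterior tissue against 0.04 for all genes. Id1, an inhibitor of basic helix-loop-helix factors, had 6.27 in the anterior and 5.74 in the posterior array, or 1.45-fold higher in anterior tissue. Id2 of the same family had 8.25 and 7.74, or 1.43-fold, and Id4 had 5.90 and 5.57, or 1.26-fold. The inhibitory Smad6 leaned the other way, with 6.05 in anterior and 6.20 in posterior tissue. Its log2 difference of 0.15 was under its local spread of 0.17. With the trend with level removed, Smad6 lay 0.22 toward posterior tissue, and the median of the 7 response genes was 0.20 toward anterior tissue. The response genes thus did not all pass 1.3-fold toward anterior tissue as Msx1 and Msx2 did.

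Among 5 BMP ligands measured, 1 passed 1.3-fold toward anterior and 0 toward posterior tissue. Bmp2 and Gdf5 of these 5 were under the floor in both arrays. Bmp5 had 6.65 in the anterior and 6.17 in the posterior array, or 1.40-fold. Bmp7, a ridge and mesenchyme ligand, had 7.26 and 6.93, or 1.26-fold. Bmp4, the ligand most often linked to Msx induction, leaned toward posterior tissue, with 7.12 in anterior and 7.27 in posterior tissue, a log2 difference of 0.15 against a local spread of 0.13. With the trend with level removed, Bmp4 lay 0.24 toward posterior tissue, and Bmp5 and Bmp7 lay 0.41 and 0.24 toward anterior tissue. Of 8 receptors and SMAD proteins, Smad1, which carries the BMP signal to the nucleus, was 1.38-fold higher in anterior tissue, with 6.62 and 6.15, and no other passed in either direction. Bmpr1a and Bmpr2 lay 0.13 and 0.11 toward anterior tissue, and Bmpr1b lay 0.10 toward posterior tissue. Smad9 was under the floor in both arrays. Of 7 antagonists, 0 passed toward anterior tissue and 1, Nog, toward posterior tissue, but Nog was under the floor in both arrays. With an offset of 32 on the linear scale, which shrinks ratios at low levels, 1 response gene, 0 ligands and 0 receptors and SMAD proteins were past 1.3-fold toward anterior tissue. Among detected antagonists the differences were small, with Fst at 0.17 and Chrd at 0.10 toward posterior tissue and Twsg1 at 0.11 toward anterior tissue.

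**Figure D4:**
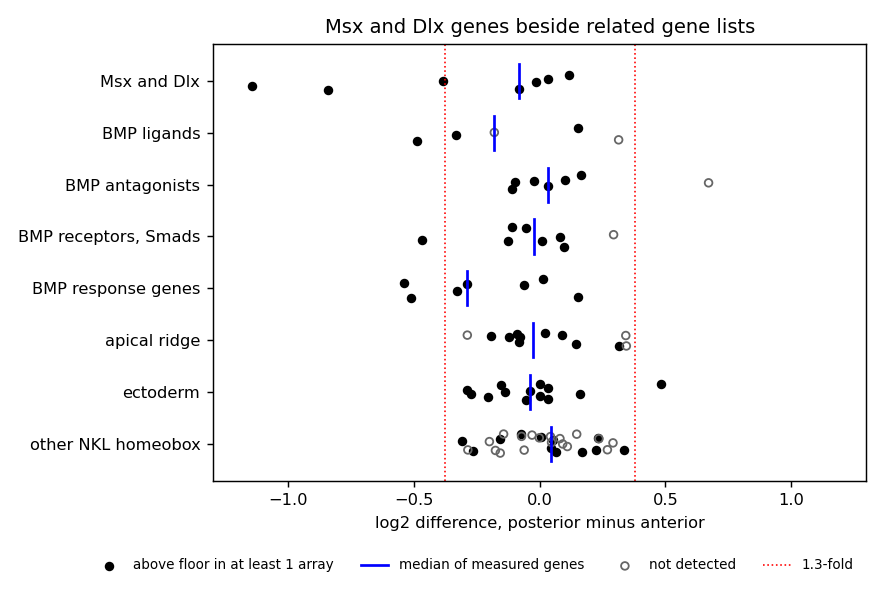
Log2 difference, posterior minus anterior (horizontal axis), of each measured gene in the Msx and Dlx set, in 4 BMP lists, in the ridge and ectoderm lists and among other NK-like homeobox genes. Filled points are genes above the floor in at least 1 array, open points genes not detected, blue bars list medians and red dotted lines 1.3-fold; in the other NK-like list no point passes the line.

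Other NK-like homeobox genes were compared because they share the homeodomain subclass. En1 was placed with the ridge genes instead. Of 38 listed, 30 were measured and 12 were above the floor in at least 1 array. In either direction 0 of 30 passed 1.3-fold, against 4.80% of all genes toward anterior and 3.77% toward posterior tissue. Their median was 0.04 toward posterior tissue. Nkx2-5, a cardiac gene, was the detected member furthest toward posterior tissue, with 5.21 in anterior and 5.55 in posterior tissue. Hmx3 had 5.16 and 4.85, with the posterior value under the floor, and Hmx1 had 6.35 and 6.08. Neither approached the difference of Msx1. Since most of these genes were at background, the comparison says little of the subclass as a whole.

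Ridge and ectoderm genes were set beside the Dlx genes, because several Dlx genes are known from the ridge. Of 12 genes in the ridge list 0 passed 1.3-fold in either direction, and the median was 0.03 toward anterior tissue. Only 9 of the 12 were above the floor in at least 1 array, the exceptions being Fgf17, Sp6 and Sp8. That list includes Trp63, En1 and Wnt7a, which are not specific to the ridge. Over all genes 4.80% passed toward anterior and 3.77% toward posterior tissue. With the trend with level removed, 1 gene of the ridge list, Fgf4, passed toward posterior tissue. Fgf4, a ridge growth factor, had 5.94 in anterior and 6.25 in posterior tissue, a log2 difference of 0.31. Fgf9 and Rspo2 lay 0.15 toward posterior and 0.20 toward anterior tissue. Fgf8, the main ridge growth factor, lay 0.12 toward anterior tissue, and Trp63, a master regulator of ectoderm, 0.08. Of 13 ectoderm genes 0 passed toward anterior and 1 toward posterior tissue: Krt5, a basal keratin, with 6.96 and 7.44. Perp and Cldn7, genes of cell junctions, lay 0.29 and 0.27 toward anterior tissue. The summed level of the ectoderm list was 10.21 in both arrays on the log2 scale, and that of the ridge list 9.33 in anterior and 9.35 in posterior tissue. These sums weight the brightest probe sets most, which in the ridge list is that of Trp63. The part of ridge and ectoderm content in the Dlx5 difference was not tested.

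Of 9 limb mesenchyme genes, which include other homeobox genes, 4 passed 1.3-fold toward anterior and 0 toward posterior tissue. The shares over all genes were 4.80% toward anterior and 3.77% toward posterior tissue. The LIM homeobox genes Lhx9 and Lhx2 differed toward anterior tissue by 2.47-fold and 1.72-fold and the paired-type Prrx2 by 1.74-fold, so that the 1.79-fold of Msx1 lay within their range. Twist1 was the fourth, and 3 passed once the trend with level was removed. Tbx4 lay furthest the other way, just under 1.3-fold as measured, and it passed toward posterior tissue with median-centred arrays and with the trend removed. Known posterior genes checked the labels: Shh, Hand2, Ptch1, Gli1 and Hoxd13 all passed 1.3-fold toward posterior tissue, while of 4 anterior genes Alx4 and Gli3 passed toward anterior tissue and Pax9 and Irx3 leaned the same way without passing.

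Markers of other cells were counted beside the 4.80% of all genes past 1.3-fold toward anterior and 3.77% toward posterior tissue. Among them, 2 of 5 macrophage genes passed toward anterior tissue (summed level 7.78 in the anterior and 7.30 in the posterior array). These were Tyrobp, at 1.82-fold, and C1qa, which passed by measured values without being detected. Csf1r and Adgre1 were also under the floor in both arrays, and Cx3cr1 was at 1.26-fold. Of 8 neural and crest genes Dcx alone passed, at 1.79-fold toward anterior tissue (sums 8.59 and 8.28), and Foxd3, Erbb3, Gad1, Gad2 and Elavl4 were under the floor in both. Dcx has the brightest probe set of this list and so weighs most in its sums, while the list median was 0.03 toward posterior tissue. Of 5 body wall genes Foxc2 (bound 1.39-fold) passed toward anterior tissue and 0 toward posterior tissue (sums 7.96 and 7.92). Of 6 endothelial genes 0 passed (sums 9.70 and 9.68). Klf1 of 4 red blood cell genes (sums 12.69 and 12.70) and Myod1 of 5 muscle progenitor genes (sums 8.09 and 8.19) passed toward posterior tissue by measured values, Klf1 without being detected and Myod1 with a bound of only 1.03-fold. The part of other cells in the Msx and Dlx differences was not tested.

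By distance in the plane of anterior and posterior log2 level, over these 2 arrays alone, the detected genes nearest to Msx1 were 3110009E18Rik, Raet1e and Tm2d1, at distances of 0.08, 0.15 and 0.17. The nearest to Dlx5 were Tle5, Daam2 and Commd10, at 0.01, 0.03 and 0.03. Their differences toward anterior tissue were 1.71-fold, 1.76-fold and 1.55-fold for the genes near Msx1, and 1.30-fold, 1.34-fold and 1.33-fold for those near Dlx5. Like differences follow from picking genes by these same levels. Such a distance sets values of different probe sets side by side, which do not measure amounts of RNA on a common scale.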

How the data were processed

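RNA of 2 pooled samples was measured on 1 array each. Per the labels, the authors deposited log2 RMA values made at the core gene level with Affymetrix Expression Console. The log2 scale was checked against the range of the values. The submitters' processing notes name the build mm9 but no version of the software. Of 23332 probe sets, 14996 had exactly 1 symbol, 1019 several and 7317 none. Log2 values were averaged per symbol, which gave 14860 genes, and each of the 7 measured members had 1 probe set. The posterior value minus the anterior value was taken, with no test. The local spread is 1.4826 times the median absolute deviation. Calculations used Python 3.11.15, pandas 2.3.3 and statsmodels 0.14.6, and were tested on simulated data. RMA, as usually run, equalises the brightness of the arrays. Precision is limited by having 1 array per tissue. Named genes were all members, the label checks, up to 3 detected genes of each list with the largest difference, the detected gene furthest the opposite way, the nearest 2 measured genes on each side of each locus, and the 3 genes nearest to Msx1 and to Dlx5 in level. Others were named after their values were seen. Members and lists were chosen with earlier results of these data known. The non-coding Dlx1as, Dlx6os1 and Dlx4os were not analysed here. Alternatives were median-centred arrays, removal of the trend with level (lowess, fraction 0.3), an offset of 32 on the linear scale, the brightest probe set, other thresholds, a filter to detected genes and other floors.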

Additional observations from a re-analysis of the deposited data

How the results depend on the processing

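Msx1 and Msx2 stayed past 1.3-fold toward anterior tissue with median-centred arrays, with the trend removed and with the offset, and Dlx5 in none of these 3, its log2 difference ranging from 0.27 to 0.38 with the measured value included. The brightest probe set could not change a member, since each has 1 probe set. With an offset of 32 on the linear scale, which shrinks ratios at low levels by construction, the log2 difference, posterior minus anterior, was -0.65 for Msx1 and -0.58 for Msx2. Over all genes, the counts toward anterior and posterior tissue (713 and 560) became 157 and 60 with the offset, 422 and 167 among detected genes, 226 and 199 at 1.5-fold and 1618 and 1114 at 1.2-fold. They were 626 and 651 with median-centred arrays, so that the anterior excess turned round. The share of calls toward anterior tissue was 56.0% as measured, 49.0% with median-centred arrays, 51.7% with the trend removed and 72.4% with the offset. With the floor at the 99th percentile of background genes 2 members were detected in place of 7. No paired analysis was possible because each tissue has 1 array, and for the same reason no replicate could be left out. The number of arrays and the low signal over background of Msx2 and of Dlx1 to Dlx4 limit what can be said.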

Other observations

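The nearest 2 measured genes on each side of the 5 loci, 20 genes in all, were taken from the gene order of GRCm38. Of all 20, 1 passed 1.3-fold by measured values, Tac1. Of the 14 above the detection floor in at least 1 array 0 passed, against 6.53% of all 9017 detected genes, a share so low that a count of 0 among 14 says nothing particular of these genes. Stx18, a syntaxin of membrane traffic next to Msx1, came closest, with 6.35 in the anterior and 6.02 in the posterior array, or 1.26-fold. On the other side of Msx1, Evc2, a ciliary protein of Hedgehog signalling, lay 0.13 toward posterior tissue. Beside Msx2, Sfxn1 and Ror2, a receptor of WNT5A, lay 0.16 and 0.17 toward anterior tissue. Beside Dlx5 and Dlx6, Sem1, a proteasome subunit, had 11.47 in anterior and 11.33 in posterior tissue. Tac1, the neuropeptide gene on the other side of this pair, had 4.84 in anterior and 3.81 in posterior tissue, both under the floor, so its measured difference of 1.03 has no bound above 1. The other neighbours of Msx1, Stk32b and Nsg1, lay 0.09 and 0.25 toward anterior tissue, and those of Msx2, Sptlc1 and Drd1, 0.08 toward anterior and 0.11 toward posterior tissue. Beside Dlx1 and Dlx2, Metap1d, Hat1, Platr26 and Itga6 lay 0.26, 0.15, 0.06 and 0.05 toward anterior tissue. Beside Dlx3 and Dlx4, Pdk2 and Kat7 lay 0.12 and 0.16 toward anterior tissue, and Itga3 and Tac4 0.06 and 0.17 toward posterior tissue. Slc25a13 and Asns, the remaining neighbours of Dlx5 and Dlx6, lay 0.12 toward anterior and 0.08 toward posterior tissue. Stk32b, Drd1, Platr26, Pdk2 and Tac4 were under the floor in both arrays.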
